A study of Mus musculus with 15 samples.

Results

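The 10 genes described here are named by human genetics as Alzheimer disease risk loci, other than Trem2, and were followed in BV2 cells, an immortalised mouse microglial line. The members were chosen by gene symbol: Cd33, Ms4a6d, Sorl1, App, Picalm, Bin1, Cd2ap, Ptk2b, Abi3 and Abca7, 10 of the 54390 genes in each count table. All 10 were among the 14237 genes that passed the filter on low counts. RNA sequencing was carried out on WT cells and Trem2-/- cells, labelled Trem2KO, each kept in medium alone (non-foamy) or loaded overnight with 20 µg/mL soluble cholesterol (foamy). Each group had 4 libraries, apart from the Trem2-/- non-foamy group, which had 3. Trem2-/- clones were isolated by limiting dilution after a Cas9-expressing BV2 clone received a guide against Trem2. How many such clones were sequenced, and whether the WT cells were that Cas9 clone or its parent, is not given in the sources used here, so loss of Trem2 and differences between clones cannot be told apart. The labels do not say whether the numbered samples were separate cultures, so the p-values measure the spread between these samples, which may be technical.

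Most of these genes act in one of a few cellular processes. App encodes the amyloid precursor protein, the source of amyloid-β, and Sorl1 encodes a sorting receptor of the VPS10 family that carries it between the Golgi and endosomes. Picalm, Bin1 and Cd2ap encode proteins that assemble clathrin coats, bend membranes and link endocytosis to actin. Cd33, a receptor of the family that binds sialic acids, and Ms4a6d, a membrane protein of the Ms4a family, are expressed on myeloid cells. Abi3 belongs to the actin-regulating WAVE complex, Ptk2b encodes Pyk2, a kinase related to focal adhesion kinase, and Abca7 encodes a lipid transporter.

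Library totals ran from 23538963 to 41683825 counts. The BV2 label was checked first: all 10 macrophage and microglia lineage markers stood above 1 CPM (counts scaled to library size) in every library, while of the homeostatic microglia markers Sall1 had no count in any library and Tmem119 stayed between 0.0489 and 0.728 CPM. All 5 fibroblast markers, 3 of 5 astrocyte markers and 3 of 6 neuronal markers had no count in any library. The summed CPM of the lineage markers was higher in Trem2-/- libraries (5684 to 5941 non-foamy, 5709 to 5918 foamy) than in WT libraries (3977 to 4813 non-foamy, 4282 to 4841 foamy), and its part in the results below was not tested. Trem2 transcripts were lower in every Trem2-/- library, at 214 to 232 CPM, than in every WT library, at 327 to 415 CPM, and were not lost. In bulk RNA a lower level cannot be told apart from fewer cells that express the gene.

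Of the 15 libraries, 3 stood apart from their groups in how their counts varied with gene length or GC content. WT non-foamy library 3 was the lowest of its group for 7 of the 10 genes, WT foamy library 1 was the highest of its group for 6, and Trem2-/- foamy library 4 was the lowest of its group for 6. The fits without these libraries are given beside the results they change.

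The genes that passed the test between genotypes were Picalm, Cd33 and App, and the bases upstream of their transcription starts are shown here so that their sequence can be read beside their values. Each run is the 250 bases that precede the RefSeq start of the gene in build GRCm38.p6, written 5′ to 3′ on the gene's own strand: chr7:90129963-90130212 on the plus strand for Picalm, chr7:43533172-43533421 on the minus strand for Cd33, and chr16:85173708-85173957 on the minus strand for App. Capitals mark matches on either strand to the letters GGGCGG, the core that Sp1 binds, and to CACGTG, the E-box.
Picalm: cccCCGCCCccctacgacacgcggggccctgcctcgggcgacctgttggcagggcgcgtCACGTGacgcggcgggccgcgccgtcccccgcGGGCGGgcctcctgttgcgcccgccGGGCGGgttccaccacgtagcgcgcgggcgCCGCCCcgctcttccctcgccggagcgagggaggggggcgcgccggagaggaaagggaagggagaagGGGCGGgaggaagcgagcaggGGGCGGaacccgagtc
Cd33: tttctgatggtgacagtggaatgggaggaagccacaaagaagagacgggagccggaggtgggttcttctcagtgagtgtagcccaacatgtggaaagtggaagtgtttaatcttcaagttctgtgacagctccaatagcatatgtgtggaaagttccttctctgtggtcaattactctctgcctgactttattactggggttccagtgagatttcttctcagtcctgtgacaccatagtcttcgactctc
App: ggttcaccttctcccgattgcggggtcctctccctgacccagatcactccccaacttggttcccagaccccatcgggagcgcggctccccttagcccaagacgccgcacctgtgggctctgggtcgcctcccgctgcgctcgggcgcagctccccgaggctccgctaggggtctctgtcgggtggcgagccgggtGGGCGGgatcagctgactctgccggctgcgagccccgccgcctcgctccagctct
The Picalm window held 6 Sp1 matches and 1 E-box, the App window 1 Sp1 match, and the Cd33 window neither. Among the 32851 promoters of the RefSeq table, 32.7% held at least 1 Sp1 match and 6.02% an E-box in the same 250 bases. The GC content was 79.2% for Picalm, 70.8% for App and 46.8% for Cd33. None of the 3 windows held GAGGAAGT (PU.1, in 2.44% of promoters), TGACGTCA (CRE, 1.55%) or TCACCCCAC (SRE, 0.496%). The RefSeq table held windows for 6 of the 10 genes. The Cd33 window lay inside the span that GENCODE gives the gene, chr7:43524216-43544428, so the annotations place its start differently. The App window overlapped the end of its GENCODE span, chr16:84949685-85173766.

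The 10 genes differed widely in level. Scaled by exonic length and library size (RPKM), Cd33 was the most abundant, with 14.97 ± 1.63 (SD over the 15 libraries), followed by Picalm at 12.7 ± 1.27, Bin1 at 10.1 ± 0.985 and App at 9.19 ± 1.149. Ptk2b at 8.26 ± 0.936 and Cd2ap at 7.54 ± 0.385 came next, then Sorl1 at 3.62 ± 0.516. Abca7 at 1.104 ± 0.204, Abi3 at 1.04 ± 0.211 and Ms4a6d at 0.90 ± 0.235 were the lowest. Cd33 held the first place and Sorl1 the seventh in all 15 libraries. The other places were not fixed: Picalm ranged between places 2 and 3, Bin1 between 2 and 4, App between 3 and 6, and Ptk2b and Cd2ap between 4 and 6, while the last 3 genes exchanged places 8 to 10. Over the 15 libraries the values of neighbouring genes within those places overlapped. Within groups some did not: Picalm lay above Bin1 in every group but WT non-foamy, Bin1 above App in WT non-foamy, App above Ptk2b in both Trem2-/- groups, Ptk2b above Cd2ap in WT foamy and Trem2-/- non-foamy, and Abi3 above Ms4a6d in Trem2-/- foamy libraries. The mean level of Cd33 exceeded that of 79.9% of the tested genes, and that of Ms4a6d exceeded 24.7%. The first place of Cd33 depends on the scaling by exonic length. In CPM, Picalm (172 to 232) stood above Cd33 (100.2 to 143) in every library.

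**Figure D1:**
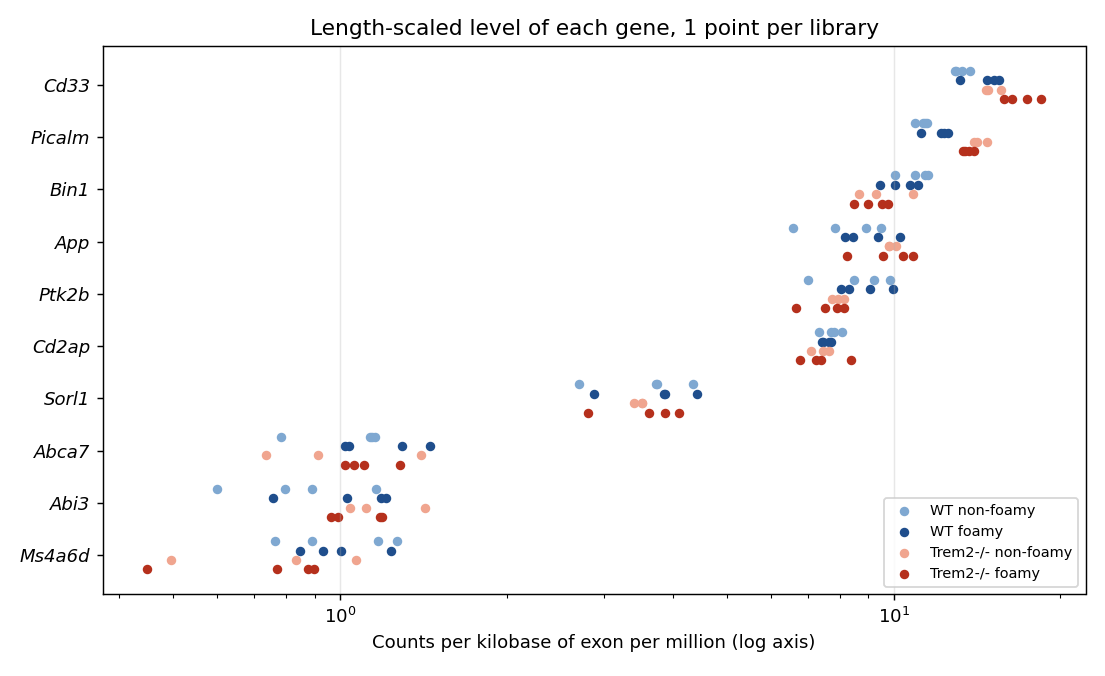
Length-scaled level (RPKM, counts scaled by exonic length and library size, log axis) of the 10 genes, with 1 point per library and a row of points for each group. Cd33 lay highest, between 12.9 and 18.4, and Abca7, Abi3 and Ms4a6d overlapped at the low end.

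The first question was whether loss of Trem2 changed these genes in cells without added cholesterol. Of the 10 genes, 3 passed the test, Picalm, App and Cd33, and all 3 were higher in Trem2-/- cells, by 1.14 to 1.27-fold. The test was edgeR's quasi-likelihood test with Benjamini-Hochberg adjustment over all tested genes, at an adjusted p under 0.05. In this comparison 43.6% of all tested genes passed in either direction and 21.0% of all tested genes passed as higher, so 3 of 10 was below the first share and above the second. The median absolute log2 fold change was 0.19 for the 10 genes and 0.32 for all tested genes.

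Picalm, the clathrin assembly adaptor (chr7:90130213-90213465, 21 exonic blocks), showed the clearest difference. Its level was 177, 179, 172 and 181 CPM in the WT non-foamy libraries and 232, 222 and 220 CPM in the Trem2-/- non-foamy libraries. Every Trem2-/- library was therefore above every WT library. The means were 177 ± 4.12 (SD, n = 4) and 225 ± 6.53 (n = 3), a 1.27-fold difference (95% confidence interval 1.17 to 1.38, log2 0.34 ± 0.06 SE, edgeR adjusted p = 3.92e-05). It kept its call when each library was left out in turn, with adjusted p between 6.51e-05 and 0.000736.

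App, the amyloid precursor, spans chr16:84949685-85173766. In WT non-foamy libraries it stood at 101.7, 123, 85.4 and 116 CPM, and in Trem2-/- non-foamy libraries at 127, 127 and 131 CPM. The WT libraries were widely spread, with library 3 the lowest, and the Trem2-/- libraries lay close together just above the highest of them. The means of 107 ± 16.8 (n = 4) and 129 ± 2.41 (n = 3) differed 1.21-fold (1.04 to 1.40, log2 0.27 ± 0.10, edgeR adjusted p = 0.0415). The call was lost without Trem2-/- non-foamy library 1 (adjusted p = 0.0828), 2 (0.0828) or 3 (0.11), and without WT non-foamy library 1 (0.0944) or 3 (0.121).

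Cd33, the sialic acid receptor (chr7:43524216-43544428), was measured at 103, 100.2, 107 and 101 CPM in WT non-foamy libraries and at 115, 121 and 114 CPM in Trem2-/- non-foamy libraries. The Trem2-/- libraries all lay above the WT libraries. The means were 103 ± 3.05 (n = 4) and 117 ± 3.98 (n = 3), a 1.14-fold difference (1.03 to 1.25, log2 0.19 ± 0.07, edgeR adjusted p = 0.0304). It was lost without Trem2-/- non-foamy library 1 (0.0605) or 2 (0.128), and without WT non-foamy library 1 (0.0509), 2 (0.0691) or 4 (0.0664). The libraries of the 2 groups did not overlap for these 3 genes, against 46.1% of all tested genes.

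Among the other 7 genes, Bin1 and Abi3 came nearest to the threshold, in opposite directions. Bin1, the amphiphysin-related membrane-bending protein (chromosome 18), stood at 45.0, 47.4, 41.4 and 46.8 CPM in WT non-foamy and at 35.6, 44.7 and 38.2 CPM in Trem2-/- non-foamy libraries. Trem2-/- library 2 lay within the WT range and the other two below it (log2 -0.20 ± 0.08, edgeR adjusted p = 0.0611). Without that library the value was -0.29 and the adjusted p was 0.0122, and without WT non-foamy library 3 it was -0.23 and 0.0253.

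Abi3, the WAVE complex subunit (chr11:95830074-95842476), had few counts, between 75 and 208 in a library. It stood at 2.49, 4.83, 3.30 and 3.70 CPM in WT non-foamy and at 4.33, 5.92 and 4.63 CPM in Trem2-/- non-foamy libraries, and WT library 2 lay within the Trem2-/- range. The difference of log2 0.47 ± 0.20 had an edgeR adjusted p of 0.0637, which became 0.0142 without WT non-foamy library 2. Genes on the opposite strand, Gngt2, Phospho1 and Zfp652, cover 75.8% of its exonic bases. The strand setting of the counting is not given in the sources used here, so reads of Abi3 and of its neighbours may not have been told apart. Gngt2 (log2 0.53 ± 0.11, edgeR adjusted p = 0.000306) and Zfp652 (0.34 ± 0.10, 0.00782) were higher in the same comparison. Their part in the value of Abi3 was not tested.

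For the remaining 5 genes the groups overlapped. Ms4a6d, counted 21 to 91 times in a library, differed by log2 -0.34 (95% confidence interval -0.95 to 0.27), which leaves room for a large change either way. Ptk2b differed by -0.12 (-0.32 to 0.08), Sorl1 by -0.07 (-0.36 to 0.22), Abca7 by -0.07 (-0.45 to 0.32) and Cd2ap by -0.06 (-0.20 to 0.08). None of the 5 passed the test, with edgeR adjusted p between 0.320 and 0.802. After trends with GC content and length were removed, Abi3 (log2 0.60, adjusted p = 0.0167) and Cd2ap (-0.20, adjusted p = 0.00189) passed as well, which raised the count from 3 to 5. Without the 3 libraries that stood apart the count was also 5, through Bin1 (-0.23, adjusted p = 0.0106) and Ptk2b (-0.21, adjusted p = 0.00496).

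**Figure D2:**
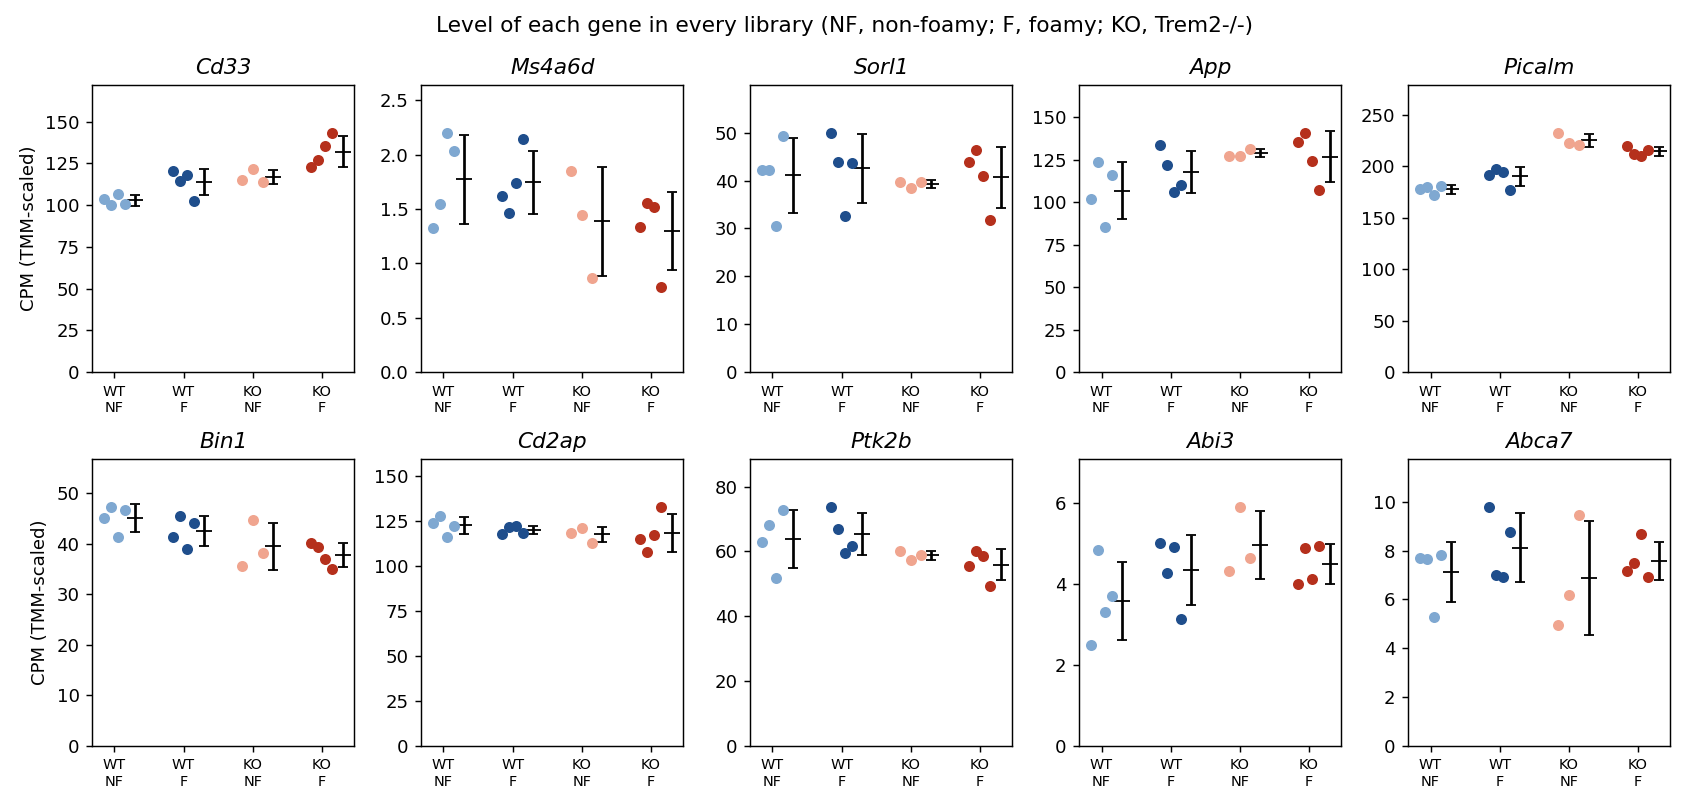
CPM of each gene in every library, with the mean and SD of each group beside its points; the vertical axes start at 0 and differ between panels. In the Picalm panel all 7 Trem2-/- libraries lie above all 8 WT libraries, and in the Sorl1, Cd2ap and Abca7 panels the 4 groups overlap.

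The same contrast in foamy cells asked whether loss of Trem2 changed the genes under cholesterol loading. Cd33 and Picalm passed the test, again higher in Trem2-/- cells, and App did not. Of all tested genes 30.2% passed in either direction and 14.3% passed as higher, and 2 of 10 again lay between these shares. The median absolute log2 fold change was 0.14 for the 10 genes and 0.22 for all tested genes. The same libraries also served in the cholesterol comparisons below.

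Cd33 stood at 120, 115, 118 and 102.3 CPM in WT foamy libraries and at 123, 127, 135 and 143 CPM in Trem2-/- foamy libraries. All 4 Trem2-/- values exceeded all 4 WT values, and WT library 4 was the lowest. The means of 114 ± 7.94 and 132 ± 9.08 (n = 4 each) differed 1.16-fold (1.06 to 1.27, log2 0.22 ± 0.06, edgeR adjusted p = 0.0115).

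Picalm was measured at 192, 198, 194 and 176 CPM in WT foamy libraries and at 220, 212, 210 and 216 CPM in Trem2-/- foamy libraries. The groups were again separate, with WT library 4 the lowest. The means were 190 ± 9.35 and 214 ± 4.38 (n = 4 each), a 1.13-fold difference (1.04 to 1.22, log2 0.17 ± 0.05, edgeR adjusted p = 0.0161). Without WT foamy library 4 neither gene passed (adjusted p = 0.0558 for Cd33 and 0.0696 for Picalm), which left no gene of the 10 called. These were the only 2 of the 10 genes whose libraries did not overlap in this contrast, against 28.8% of all tested genes.

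App was at 134, 122, 106 and 110 CPM in WT foamy and at 135, 141, 124 and 107 CPM in Trem2-/- foamy libraries. The ranges overlapped (log2 0.11 ± 0.10, edgeR adjusted p = 0.451). Trem2-/- libraries 1 and 2 lay above every WT value, and library 4 was close to the lowest WT value. Without the 3 libraries that stood apart the difference was 0.24 and passed the test (0.00408).

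Ptk2b, the Pyk2 kinase (chr14:66153257-66281052), came closest among the others. Its level was 73.8, 67.0, 59.4 and 61.6 CPM in WT foamy libraries and 55.5, 60.2, 58.5 and 49.3 CPM in Trem2-/- foamy libraries. Of the Trem2-/- values, 1 lay above the lowest WT value, and the rest lay below (log2 -0.23 ± 0.09, edgeR adjusted p = 0.0548). It passed without WT foamy library 3 (-0.28, adjusted p = 0.0294) or Trem2-/- foamy library 2 (-0.26, adjusted p = 0.0433), with no filter on low counts (-0.24, 0.0109), in a fit of the compared groups alone (-0.23, 0.0369), and after GC and length trends were removed, without (-0.14, 0.032) and with the replicate block (-0.14, 0.0341). It did not pass without the 3 libraries that stood apart (-0.11, adjusted p = 0.175).

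Bin1 stood at 41.4, 45.6, 39.0 and 44.1 CPM in WT foamy and 40.3, 39.3, 37.0 and 35.0 CPM in Trem2-/- foamy libraries, a log2 difference of -0.17 ± 0.08 (edgeR adjusted p = 0.108). Of the Trem2-/- values, 2 lay within the WT range. Ms4a6d differed by -0.41 (-0.98 to 0.15), Abca7 by -0.11 (-0.45 to 0.24), Sorl1 by -0.06 (-0.33 to 0.20), Abi3 by 0.04 (-0.34 to 0.43) and Cd2ap by -0.02 (-0.15 to 0.11), none past the test.

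The genotype contrast averaged over both states, which was added after the data were seen, used all 15 libraries. In it 51.2% of all tested genes passed, 24.9% as higher and 26.2% as lower, and 5 of the 10 genes did. Picalm (log2 0.26 ± 0.04, edgeR adjusted p = 7.92e-06), Cd33 (0.20 ± 0.05, 0.000886) and App (0.19 ± 0.07, 0.0325) were higher in Trem2-/- cells. Bin1 (-0.18 ± 0.06, 0.0101) and Ptk2b (-0.17 ± 0.07, 0.0284) were lower. Picalm, Cd33 and Bin1 passed in all 15 fits that left out 1 library, Ptk2b in 9 and App in 6. Ptk2b was lost without WT non-foamy library 2 or 4, WT foamy library 1, Trem2-/- non-foamy library 2 or 3, or Trem2-/- foamy library 4, with adjusted p from 0.0521 to 0.0728. App was lost without WT non-foamy library 1 or 3, WT foamy library 3 or 4, any of the Trem2-/- non-foamy libraries, or Trem2-/- foamy library 1 or 2, with adjusted p from 0.0536 to 0.0752. After trends with GC content and length were removed Bin1 did not pass (-0.11, adjusted p = 0.0556), and Abi3 (0.38, 0.0225) and Cd2ap (-0.14, 0.00145) did. With total counts in place of TMM factors Cd33 (0.06, adjusted p = 0.282) and App (0.05, 0.696) did not pass, Picalm (0.12, 0.0242), Bin1 (-0.32, 0.000623) and Ptk2b (-0.31, 0.00539) did, and Cd2ap (-0.18, 0.00344) and Ms4a6d (-0.51, 0.0373) were called lower.

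The values within each state depend on the scaling as well. With total counts in place of TMM factors, the median log2 fold change of all tested genes moved by -0.14 without cholesterol and by -0.13 with it, and the share of calls that were higher went from 48.1% to 29.4% and from 47.4% to 23.3%. On that scale Cd33 (0.05, edgeR adjusted p = 0.646) and App (0.12, adjusted p = 0.505) were not called without cholesterol, Picalm remained (0.20, adjusted p = 0.0152), and Bin1 (-0.34, adjusted p = 0.00971) and Cd2ap (-0.20, adjusted p = 0.0213) were called lower. In foamy cells neither Cd33 (0.08, adjusted p = 0.357) nor Picalm (0.04, adjusted p = 0.611) was called, and Bin1 (-0.30, adjusted p = 0.0183) and Ptk2b (-0.36, adjusted p = 0.0252) were. Relative to the shifted median, the values of Picalm (0.34 and 0.17), Cd33 (0.19 and 0.21) and App (0.26 and 0.10) differed little from those under TMM. That closeness was fixed beforehand, since the scalings differ by 1 factor per library, which moves all genes nearly alike. It therefore does not bear on the calls that were lost.

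The next question was whether cholesterol loading itself changed these genes. In WT cells none of the 10 passed the test, against 2.80% of all tested genes. Cd33 alone had an unadjusted p under 0.05 by edgeR (adjusted p = 0.233), where 16.4% of all tested genes did, and DESeq2 gave 2 such genes and called none. Its WT non-foamy and foamy values, listed above, overlapped through foamy library 4, and the means were 103 ± 3.05 and 114 ± 7.94, a 1.11-fold difference (1.01 to 1.21). The libraries of the 2 states overlapped for all 10 genes, whereas they did not for 9.71% of the tested genes. The largest estimate was that of Abi3, at log2 0.28 (-0.10 to 0.67), and the narrowest interval that of Picalm, at 0.10 (-0.01 to 0.21).

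In Trem2-/- cells the loading response was likewise not called for these genes. None of the 10 genes passed, against 0.140% of all tested genes, and Cd33 was again the one with an unadjusted p under 0.05 (edgeR adjusted p = 0.689), as 6.45% of the tested genes had. DESeq2 also gave 1 such gene and called none. Every foamy value of Cd33 (123 to 143 CPM) was above every non-foamy value (114 to 121 CPM), with means of 132 ± 9.08 and 117 ± 3.98, 1.13-fold apart (1.03 to 1.25). Picalm was separate in the other direction by a narrow margin, at 209.8 to 219.8 CPM in foamy and 220.02 to 232.4 CPM in non-foamy cells. Its difference was small (log2 -0.07, -0.19 to 0.05). The libraries did not overlap for these 2 genes, against 9.26% of all tested genes.

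Averaged over both genotypes, again a contrast added after the data were seen, Cd33 differed by log2 0.16 ± 0.05 between foamy and non-foamy cells (edgeR adjusted p = 0.797). Only 0.0140% of all tested genes passed there and none of the 10 did, while 4.64% had an unadjusted p under 0.05. Cd33 was the only one of the 10 with an interval that excluded 0, at 0.07 to 0.26.

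Whether cholesterol acted differently in the 2 genotypes was tested directly, as the response in Trem2-/- cells minus that in WT cells. None of the 10 genes passed, against 3.64% of all tested genes. Picalm had the smallest p, with a difference of log2 -0.17 ± 0.08 (edgeR adjusted p = 0.265), its WT mean being 177 CPM without and 190 CPM with cholesterol and its Trem2-/- mean 225 and 214 CPM. It was the only one with an unadjusted p under 0.05, where 17.3% of all tested genes were, and DESeq2 also gave 1 and called none. Cd33 differed by 0.03 (-0.16 to 0.22) and App by -0.16 (-0.46 to 0.13). For Abi3 (-0.42, -0.99 to 0.14) and Ms4a6d (-0.07, -0.90 to 0.76) the intervals were wide. The median absolute difference was 0.06 over the 10 genes and 0.18 over all tested genes.

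**Figure D3:**
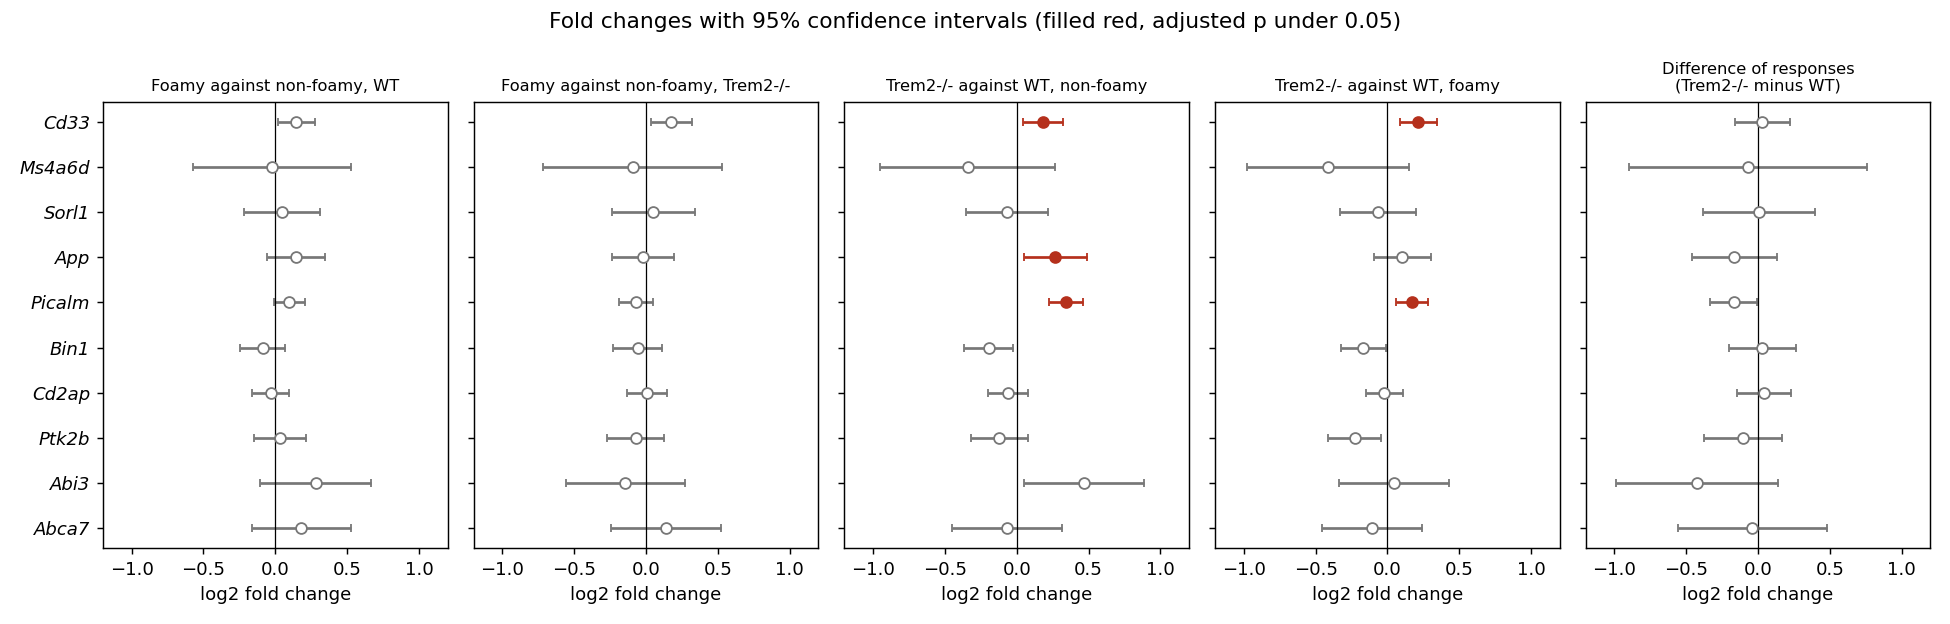
Log2 fold changes of the 10 genes with 95% confidence intervals in the 5 comparisons, filled red where the adjusted p was under 0.05. The filled points are Cd33, App and Picalm without cholesterol and Cd33 and Picalm with it, all to the right of 0, and both panels of the cholesterol response hold open points only.

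The values of Sorl1 and Abca7 are given in full, and those of Cd2ap as group means, because they bound what these libraries could show. Sorl1, the sorting receptor (chr9:41964720-42124297), stood at 42.2, 42.2, 30.5 and 49.2 CPM in WT non-foamy, 49.98, 43.8, 32.6 and 43.6 in WT foamy, 39.7, 38.4 and 39.8 in Trem2-/- non-foamy and 43.8, 46.3, 40.9 and 31.7 in Trem2-/- foamy libraries. The 3 low values, in libraries 3, 3 and 4 of their groups, made most of its spread. The interval in WT cells, -0.22 to 0.31, leaves out only changes larger than those.

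Cd2ap, the endocytic adaptor (chr17:42792951-42876665), was the steadiest of the 10 under the main settings. As given above, it was called lower in Trem2-/- non-foamy cells after GC and length trends were removed, and with total counts. Its group means were close together, at 123 ± 4.81 CPM in WT non-foamy, 120 ± 2.36 in WT foamy, 117 ± 4.39 in Trem2-/- non-foamy and 118 ± 10.7 in Trem2-/- foamy cells. A single library, Trem2-/- foamy 4, was high at 133 CPM, and the other 14 lay between 108 and 128. Of its 50-base words, 5.24% also occur in other genes, among them Gm6475, so part of its reads may be shared.

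Abca7, the lipid transporter (chr10:79996494-80015572), was at 7.70, 7.67, 5.28 and 7.81 CPM in WT non-foamy, 9.81, 7.02, 6.91 and 8.76 in WT foamy, 4.96, 6.17 and 9.47 in Trem2-/- non-foamy and 7.17, 7.47, 8.67 and 6.91 in Trem2-/- foamy libraries. The Trem2-/- non-foamy libraries spanned the range of all the WT non-foamy ones. Ms4a6d (chr19:11586604-11604849) was the least expressed, at 1.32, 1.55, 2.20 and 2.03 CPM in WT non-foamy, 1.62, 1.47, 1.74 and 2.15 in WT foamy, 1.85, 1.44 and 0.861 in Trem2-/- non-foamy and 1.33, 1.56, 1.52 and 0.780 in Trem2-/- foamy libraries. Its lowest values were both in Trem2-/- libraries, and the groups overlapped.

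Relatives of the 10 genes were examined to see whether the families moved with their risk gene. Of 22 listed paralogs 14 were tested, and between the genotypes without cholesterol 7 of them passed, beside 43.6% of all tested genes: Ms4a7, Abca1, Abi1, Aplp2 and Sh3kbp1 as higher and Ptk2 and Abca2 as lower. Differences between a risk gene and its paralog were not tested, and the values stand side by side. Amph, Snap91, Siglecg and Sorcs1 had no count in any library, which leaves Picalm without a detected relative.

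Abca1, the cholesterol exporter related to Abca7, had the largest called response to loading among the relatives. It had means of 34.2 ± 3.67 CPM in WT non-foamy, 60.7 ± 9.58 in WT foamy, 82.7 ± 4.40 in Trem2-/- non-foamy and 58.9 ± 5.49 in Trem2-/- foamy cells. It rose with cholesterol in WT cells (log2 0.82 ± 0.10, edgeR adjusted p = 3.00e-05) and fell in Trem2-/- cells (-0.49 ± 0.10, 0.0478), and the difference of the responses was -1.31 ± 0.14 (4.32e-06). The fall in Trem2-/- cells did not pass when any of the 7 Trem2-/- libraries was left out (adjusted p 0.0672 to 0.444), nor with total counts (0.327) or a replicate block (0.171). It did pass by DESeq2 (adjusted p = 0.00256) and in edgeR on the compared groups alone (0.00353). The edgeR test also called it after GC and length trends were removed (0.000857) and without the 3 libraries that stood apart (9.67e-05). Abca7 had the same sign in both genotypes, 0.18 and 0.14, and neither value passed. Abca2 was lower in Trem2-/- cells, by -0.75 ± 0.15 without and -0.61 ± 0.13 with cholesterol (edgeR adjusted p = 0.000241 and 0.00144).

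Ptk2, focal adhesion kinase and the nearest relative of Ptk2b, was at 17.6 ± 2.73 CPM in WT non-foamy and 8.57 ± 1.06 in Trem2-/- non-foamy cells, and at 16.0 ± 0.400 and 10.1 ± 1.03 in foamy cells. It fell with loss of Trem2 by 1.04 and by 0.66 on the log2 scale (edgeR adjusted p = 3.46e-07 and 8.41e-05), where Ptk2b differed by -0.12 and -0.23. Ms4a7, a relative of Ms4a6d, stood at 7.80 ± 0.384 CPM in WT and 33.1 ± 3.21 in Trem2-/- non-foamy cells, a log2 difference of 2.08 ± 0.11, and of 1.53 ± 0.10 in foamy cells. Ms4a6d itself was numerically lower in Trem2-/- cells in both states.

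Aplp2, the relative of App, was higher in Trem2-/- cells in both states, by log2 0.52 ± 0.08 and 0.28 ± 0.07 (edgeR adjusted p = 1.24e-05 and 0.00529), where App differed by 0.27 and 0.11. With total counts the second value of Aplp2 was 0.15 and did not pass (0.244). Abi1, the abundant WAVE subunit of the Abi3 family, rose from 86.3 ± 4.06 to 124 ± 2.85 CPM without cholesterol (0.53 ± 0.06) and from 91.3 ± 4.25 to 120 ± 6.49 with it (0.39 ± 0.06). Sh3kbp1, the relative of Cd2ap, was higher by 0.45 ± 0.06 without cholesterol and by 0.14 ± 0.06 with it, the second not past the test (edgeR adjusted p = 0.0508). Bin2 and Bin3 were not called in any comparison. Cd22 (2.31 ± 0.49, higher in Trem2-/- foamy cells) and Ms4a6c (-1.89 ± 0.55, lower) passed at levels under 1 CPM, and 53.1% of the exonic bases of Ms4a6c are overlapped by BE692007 on the opposite strand.

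**Figure D4:**
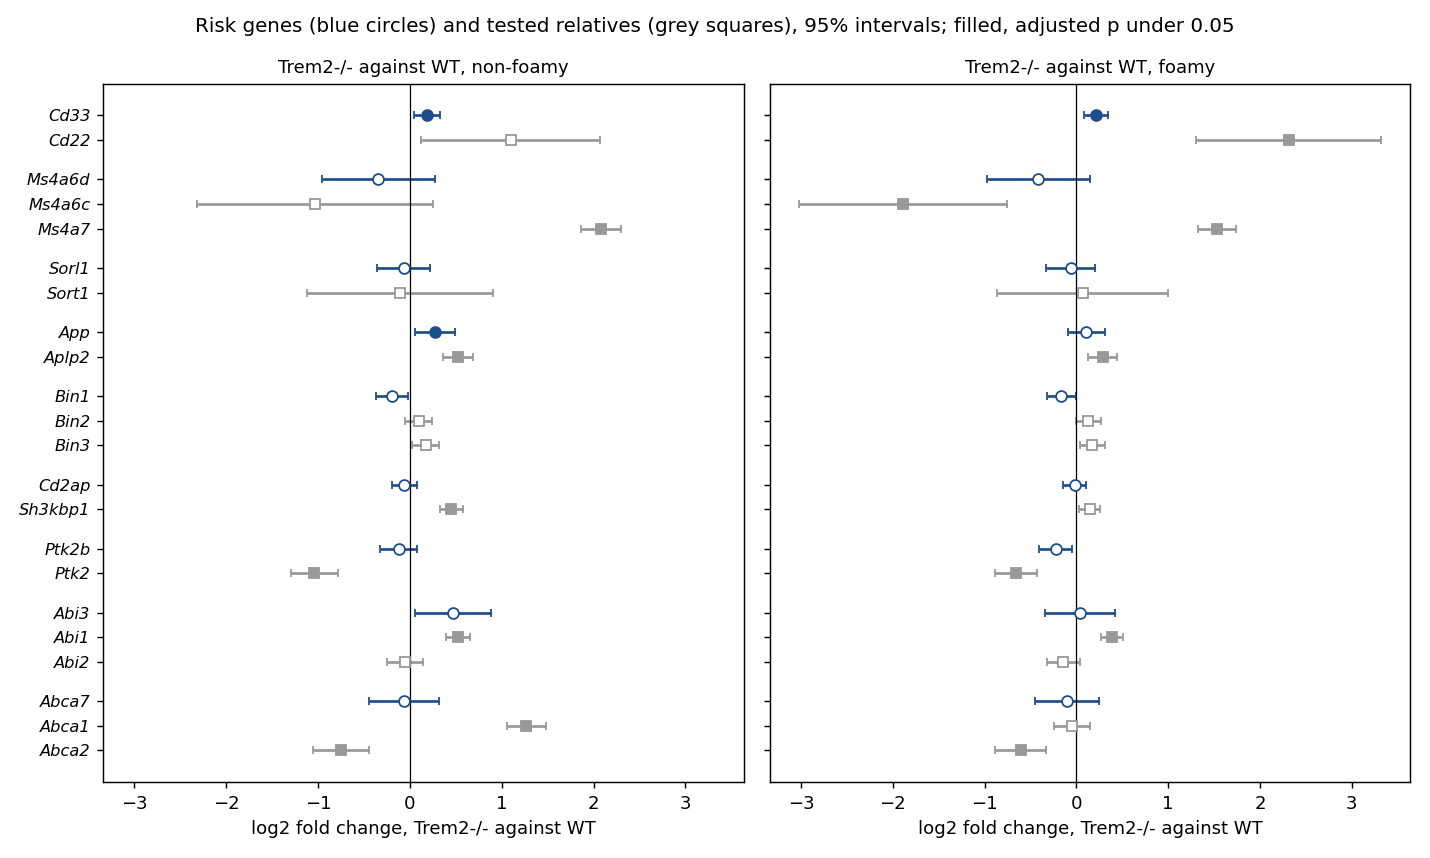
Log2 fold change between Trem2-/- and WT cells of 9 risk genes (blue circles) and their tested relatives (grey squares, Siglecf, at under 1 CPM, is left out), with 95% confidence intervals, filled where the adjusted p was under 0.05. Ms4a7 lies far to the right of Ms4a6d, and Ptk2 to the left of Ptk2b, in both states.

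Genes of the surrounding pathways were counted in the same way, from lists chosen with earlier results of these data known. Of the APP processing genes, 19 were tested and 9 passed without cholesterol (7 higher, 2 lower), a share of 47.4% beside 43.6% of all tested genes, with a median log2 fold change of 0.20. Aph1c, a γ-secretase subunit, went from 37.1 to 99.8 CPM (1.43 ± 0.08) and Ide, the insulin-degrading enzyme that cleaves amyloid-β, from 166 to 98.6 CPM (-0.76 ± 0.07). In foamy cells 7 were higher and 3 lower (52.6% beside 30.2% of all tested genes), led by Itm2b (0.996 ± 0.07), an inhibitor of APP cleavage, and Apbb2 (-0.56 ± 0.10).

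Of 25 tested clathrin endocytosis genes, 6 were higher and 5 lower without cholesterol and 3 and 6 with it. The shares of 44.0% and 36.0% stood beside 43.6% and 30.2% of all tested genes, as do those of the lists that follow. The retromer and VPS10 list had 7 higher and 2 lower of 16 without cholesterol, with Lrpap1, the chaperone of lipoprotein receptors, going from 433 to 744 CPM (0.78 ± 0.08), and 5 higher with it, shares of 56.2% and 31.2%. The WAVE list had 5 of 11 called without cholesterol and 8 of 11 with it (45.5% and 72.7%), in both directions: Nckap1l was higher by 0.57 ± 0.06 and Cyfip1 was lower, at -0.17 ± 0.07, in non-foamy cells. Focal adhesion kinase signalling genes had 2 higher and 5 lower of 13 without cholesterol, Grb2 being higher by 0.89 ± 0.07, and 1 and 5 with it, shares of 53.8% and 46.2%.

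Among the 4 tested Siglec receptors other than Cd33, Siglec1 was higher by 0.91 ± 0.20 without cholesterol and by 0.69 ± 0.18 with it. The Ms4a list had 4 of 6 called without cholesterol, all higher, and 5 of 6 with it, and the ABCA list 5 of 7 and 4 of 7, beside 43.6% and 30.2% of all tested genes and in lists too short for a share to be read closely. Of 41 other Alzheimer risk loci that were tested, 25 passed without cholesterol (14 higher, 11 lower) and 16 with it (9 higher, 7 lower), shares of 61.0% and 39.0%. Apoe, the lipid carrier, was among them, with 3760 CPM in Trem2-/- foamy and 2199 CPM in WT foamy cells (0.77 ± 0.07). Cholesterol loading in WT cells called 6 of the 41 (14.6%, beside 2.80% of all tested genes). Loading in Trem2-/- cells called 1 (2.44%, beside 0.140% of all tested genes), which was Abca1, counted in the ABCA list as well. As given above, that call did not pass when any of the Trem2-/- libraries was left out. Abca1 was also the largest of the calls in WT cells.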

How the data were processed

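Total RNA from WT and Trem2-/- BV2 cells was extracted with Trizol and RNeasy and made into TruSeq libraries. The authors aligned trimmed reads with HISAT2 and counted them per gene with featureCounts within the CHURP pipeline, and the deposited values are raw counts, not normalized, and strand and multi-mapping settings are not given in the sources used here. The build is mm10 (GRCm38), and coordinates were taken from GENCODE M21, which matched 54059 of 54390 gene identifiers (99.4%).

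Counts were tested with edgeR (4.0.16, R 4.3.3): TMM factors, filterByExpr with a minimum count of 10, a quasi-likelihood fit with 1 mean per group over all 15 samples, and Benjamini-Hochberg adjustment over 14237 genes at 0.05. DESeq2 (1.42.0) was an alternative. The fit was tested on simulated data. CPM used TMM-scaled totals and RPKM the exonic length. The interval of a fold change is at 95%.

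The members and lists were chosen with earlier results of these data known. The genes named were the 10 members, their listed paralogs and, of each list and comparison, the called genes with the largest increase and decrease at a mean of at least 1 CPM, not all of which are printed. Gngt2, Phospho1, Zfp652 and BE692007 were named after their values or positions were seen. Sequences upstream of starts came from the RefSeq table (GRCm38.p6). Replicates within each group were compared by chi-square (5.95 to 45.4 per gene over 21 pairs), so no library appeared to be deposited again within its group. Libraries of different groups were not compared in this way. Other settings were another size factor, total counts, other filters, a fit on the compared groups alone, a replicate block, a fold threshold and leaving out each library. Removing GC and length trends, leaving out 3 libraries and the averaged contrasts were added after seeing the data.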

Additional observations from a re-analysis of the deposited data

Results flagged for a closer look

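Among 72 groups of 4 libraries, each the CPM of 1 gene in 1 group, 3 held a library far from the other 3, and chance alone would flag about 1 in 20. WT non-foamy library 3 was low for Abca7, at 5.28 CPM against 7.67 to 7.81 in the others. WT foamy library 4 was high for Ptk2, at 16.6 CPM against 15.8 to 15.9. Trem2-/- foamy library 4 was low for Abca2, at 8.39 CPM against 13.1 to 13.8. The first and the last of these libraries are among the 3 that stood apart in length or GC trends.

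The response to cholesterol differed between the genotypes by the direct test for 3 of the 14 tested relatives and for none of the 10 risk genes. Of all tested genes 3.64% passed there, and the relatives were not tested against the risk genes. For Abca1 the difference, Trem2-/- minus WT, was -1.31 on the log2 scale (SE 0.14, edgeR adjusted p = 4.32e-06). For Ms4a7 it was -0.55 (SE 0.14, edgeR adjusted p = 0.0338), from 7.80 to 10.5 CPM in WT cells and from 33.1 to 30.4 CPM in Trem2-/- cells. For Sh3kbp1 it was -0.31 (SE 0.08, edgeR adjusted p = 0.0359), from 59.0 to 66.5 CPM in WT cells and from 80.8 to 73.5 CPM in Trem2-/- cells. Ms4a7 did not pass without Trem2-/- foamy library 1, 2 or 3, Trem2-/- non-foamy library 1 or 2, WT foamy library 2 or WT non-foamy library 4, with adjusted p from 0.0584 to 0.111. Sh3kbp1 did not pass without Trem2-/- foamy library 1, 2 or 3, any Trem2-/- non-foamy library, WT foamy library 2 or 3, or WT non-foamy library 1 or 4, with adjusted p from 0.0533 to 0.101. Sh3kbp1 was also lost with total counts (0.0752), with no filter on low counts (0.0988) and with a replicate block (0.0713), and Ms4a7 with the block (0.0529).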

How the results depend on the processing

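DESeq2 and DESeq2's size factors in edgeR called the same members as the edgeR test in each comparison. The count of members called between genotypes went from 3 without and 2 with cholesterol to 0 and 0 where the log2 fold change also had to reach 1 in size. It became 5 without cholesterol after GC and length trends were removed and 5 without the 3 libraries that stood apart, and ranged from 1 to 4 (without cholesterol) and 0 to 3 (with it) when each library was left out. Cd33 without cholesterol was lost with no filter (adjusted p = 0.072) and Picalm with cholesterol likewise (0.0838). The numbers of all genes called (399 and 20 for cholesterol in WT and Trem2-/- cells, 6207 and 4297 for genotype, 518 for the difference of responses) became 881, 56 and 985 (WT, Trem2-/-, difference) by DESeq2, 607 and 61 (WT, Trem2-/-) with no filter, 144 (WT) on the compared groups alone, 15, 1, 880, 409 and 45 with that fold threshold, 1091, 49 and 1282 without GC and length trends, and 1222, 126 and 1514 without the 3 libraries. Leaving out each library gave 146 to 526, 10 to 18 and 201 to 661. Companion genes called for cholesterol went to 17 in WT cells by DESeq2 and to 0 in Trem2-/- cells by total counts, which also moved the higher share of WT calls from 59.4% to 41.8% and of the difference from 54.8% to 70.3%.

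Same-numbered samples showed little shared deviation (correlations from -0.105 to 0.143 over 21 pairs, 1 over 0.1, 4 of 15 samples correlated best with their own number). With so few libraries in a group this cannot exclude a shared day or culture, and the labels do not say what the numbers mark. With a replicate block, Cd33 without cholesterol had an adjusted p of 0.0586 and the difference of responses 294 calls, and the signs of Cd2ap (Trem2-/- response, -0.0090) and Sorl1 (difference, -0.0032) turned. With the block and GC and length trends removed, the calls were 1064, 43 and 1114 and App without cholesterol had 0.0556.

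Of 990 values of members under another setting, 862 kept direction and side, 25 lost a call, 22 gained one and 81 changed sign, 0 of these being called under either setting. Without GC and length trends these were Sorl1 -0.021, Ms4a6d 0.044 and Ptk2b -0.0081 (WT response), App 0.017 (Trem2-/- response), and Abca7 0.013, 0.021 and 0.0085 (genotype without and with cholesterol, difference). With the block as well, the same results apart from the last were -0.020, 0.041, -0.0062, 0.032, 0.032 and 0.021, and Sorl1 was 0.00082 (genotype with cholesterol). Without the 3 libraries they were Sorl1 -0.15, Ms4a6d 0.12, Ptk2b -0.12, App -0.012 and Abca7 -0.032 (WT response), Cd2ap -0.052, Ms4a6d 0.076 and App 0.052 (Trem2-/- response), Sorl1 0.12 and Abca7 0.039 (genotype with cholesterol), and Cd33 -0.0025, Cd2ap -0.0055, Ptk2b 0.097, App 0.064 and Abca7 0.21 (difference). Total counts gave Abi3 -0.089 and App -0.026 (genotype with cholesterol), and at least 10 counts in every sample gave Sorl1 -0.00087 (difference). When each library was left out, ranges crossed 0 for the WT response of Sorl1 (-0.067 to 0.15), Ms4a6d (-0.14 to 0.086) and Ptk2b (-0.053 to 0.10). For the Trem2-/- response they did so for Sorl1 (-0.017 to 0.15), Cd2ap (-0.052 to 0.051), Ms4a6d (-0.34 to 0.19), App (-0.074 to 0.052), Abca7 (-0.051 to 0.45) and Bin1 (-0.13 to 0.038). For genotype they did so without cholesterol for Abca7 (-0.37 to 0.13) and Sorl1 (-0.18 to 0.031), and with it for Abi3 (-0.081 to 0.12), Cd2ap (-0.081 to 0.022), Sorl1 (-0.17 to 0.037) and Abca7 (-0.18 to 4.86e-05). For the difference they did so for Bin1 (-0.041 to 0.13), Sorl1 (-0.10 to 0.12), Cd33 (-0.017 to 0.064), Cd2ap (-0.020 to 0.084), Ms4a6d (-0.32 to 0.21) and Abca7 (-0.23 to 0.27). The causes were not tested. Depth limits Ms4a6d, counted 21 to 91 times, and Abi3, counted 75 to 208 times.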

Other observations

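The genes whose levels followed Abi3 most closely over the 15 libraries, by Pearson's r of log2 CPM, were Rffl (0.88), Gm12610 (0.84) and Tmem135 (0.83). For Ms4a6d they were Meis1 (0.84), Rab43 (0.84) and Zbtb12 (0.84). These are the highest of the tested genes by construction, the libraries share depth and group, and no test was made.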
